A study of Bos taurus with 94 samples.

Results

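A pair of genes of the cattle uterus, ENSBTAG00000021119 and ENSBTAG00000018137, is described across 94 RNA sequencing libraries of Hereford tissues. They are 2 of 24616 Ensembl genes with a value in each library, and both are among the 18031 genes that reached 1 FPKM in 3 or more libraries. FPKM counts the sequenced fragments of a gene, corrected for the length of its transcript and for the size of the library. The genes were chosen by their measured levels, the first because it was led by the endometrium and the second because the myometrium lay above the endometrium. Their uterine levels are therefore given as a description, without a test, except that 1 pair of endometrial libraries enters the comparison of sides, which is given with and without it. The deposited table pairs identifiers with no names, and 0 of 24616 identifiers matched the RefSeq gene table used, so what these genes encode is not stated and they are called by their identifiers.

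The wall of the uterus has an inner lining, the endometrium, and an outer coat of smooth muscle, the myometrium. In ruminants the endometrium carries raised, gland-free caruncles, where the placenta attaches, and glandular intercaruncular areas between them. The oviduct joins the ovary to the uterus through the funnel-shaped infundibulum, the ampulla and the narrow, more muscular isthmus. The side that carries the corpus luteum, the gland formed from the ovulated follicle, is called ipsilateral and the other side contralateral.

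The uterus gave 4 libraries, 1 of caruncular endometrium, 1 of intercaruncular endometrium from each side and 1 of myometrium. The rest of the female tract gave 8, an ipsilateral and a contralateral library of ampulla, isthmus and infundibulum, the lining of the cervix and the fornix of the vagina. All libraries are labelled Hereford and adult, the fetal testis included, and the labels give no treatment, genotype, animal or stage of the oestrous cycle. Replicates of a group are therefore mostly different tissues of 1 class, and p-values measure the spread between libraries, pooled over the groups compared. Read depth is unknown. FPKM totals ran from 585122 to 1062591, and 7353 to 14198 genes reached an FPKM of 1. Since names are missing, the tissue labels could not be checked against known marker genes.

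Several libraries stand apart from their labels and touch the results below, and not all of them are named here. The ipsilateral isthmus was closest to the cervical lining (Spearman's rho 0.884 across 18031 genes), while the contralateral isthmus was closest to the ipsilateral ampulla (0.947). The libraries labelled diaphragm and gall bladder were closest to each other (0.994), although one is a striated and the other a smooth muscle organ. The 3 endometrial libraries were closest to one another (0.983 to 0.989). The myometrium was closest to the trachea (0.919). Other libraries used below also lay nearest to a different organ. The library labelled corpus luteum was closest to longissimus dorsi muscle (0.956), internal tongue muscle to the corpus luteum (0.915), subcutaneous fat to the vesicular gland (0.970) and the tail of the epididymis to the gall bladder (0.931). Their values are given under their labels. Leaving out these 4, the vesicular gland, the diaphragm, the gall bladder and the ipsilateral isthmus changed no call for either gene in the 3 comparisons of organ classes. Many more libraries lay nearest to a different organ and were kept, so this does not clear the labels. Among them were aorta (trachea, 0.976), urethra (KPH fat, 0.969), ureter (vesicular gland, 0.942) and vas deferens (contralateral isthmus, 0.899).

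ENSBTAG00000021119 was highest in the endometrium, followed by the ipsilateral isthmus at 386 FPKM and, far lower, the fornix of the vagina at 32.7 FPKM. It stood at 578 FPKM in caruncular endometrium, 613 in ipsilateral intercaruncular endometrium and 659 in contralateral intercaruncular endometrium, with a mean of 617 ± 40.7 FPKM (SD, n = 3). The 3 libraries were close to one another, with a coefficient of variation of 6.60%, and the caruncular and glandular areas both carried the transcript. The myometrium, the adjoining muscle layer, held 25.0 FPKM, 4.05% of the endometrial mean. Median expression over the 91 libraries outside the endometrium was 0 FPKM. In bulk tissue, fewer cells of a type and less RNA per cell cannot be told apart.

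All 3 endometrial values of ENSBTAG00000021119 lay above every other library. The same held for 118 of 18031 genes (0.654%), and among them this gene had the third highest endometrial mean (rank 3). The nearest library was the ipsilateral isthmus at 386 FPKM, so the lowest endometrial value was 1.50 times the highest value elsewhere, which ranked 31 among the 118. Leaving out that isthmus library, the next was the fornix of the vagina at 32.7 FPKM, and the lowest endometrial value was 17.7 times as high. By that second ratio the gene ranked 2 among the 135 genes whose endometrial values exceeded all libraries but the ipsilateral isthmus. These ranks describe what chose the gene and support nothing further.

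**Figure D1:**
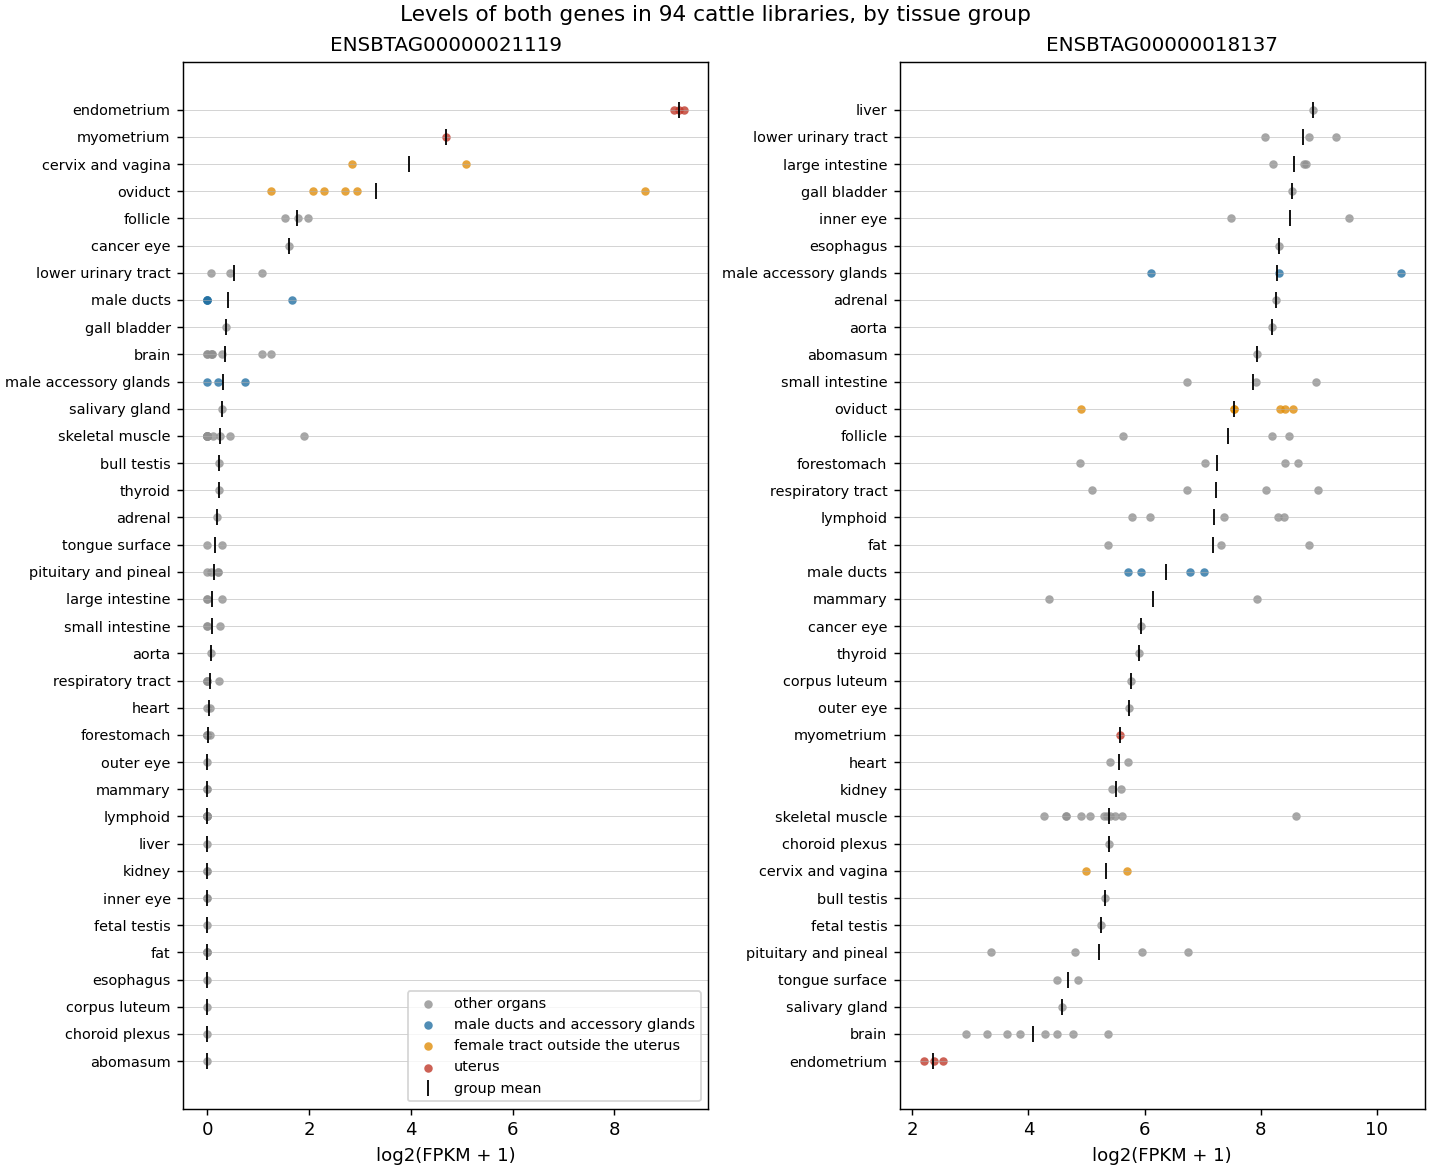
Levels of ENSBTAG00000021119 (left) and ENSBTAG00000018137 (right) in 94 libraries as log2(FPKM + 1) on the horizontal axis, with tissue groups ordered by their mean; each point is a library and each black tick a group mean. The endometrium sits at the top on the left, with 578 to 659 FPKM, and at the bottom on the right, with 3.60 to 4.75 FPKM.

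Along the rest of the tract ENSBTAG00000021119 was far lower but was listed above 0 in all 8 libraries. The fornix of the vagina held 32.7 FPKM and the cervical lining 6.17. In the oviduct the ipsilateral ampulla held 6.72 FPKM, the contralateral isthmus 5.53, the ipsilateral infundibulum 3.91, the contralateral ampulla 3.23 and the contralateral infundibulum 1.40. These 5 oviduct libraries averaged 4.16 ± 2.06 FPKM (SD, n = 5). Their order cannot be judged, because each segment and side gave 1 library. The ipsilateral isthmus, at 386 FPKM, was far above them and reached 62.6% of the endometrial mean.

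The female tract outside the uterus was then compared with the other organs, with the 4 uterine libraries left out of the fit. ENSBTAG00000021119 was at or above 1.40 FPKM in all 8 tract libraries (lowest 1.40, median 5.85, highest 386 FPKM). In the 82 other libraries its lowest value was 0, its median 0 and its highest 2.97 FPKM. The groups overlapped in 1 tract library, the contralateral infundibulum, and the other 7 lay above all 82. On the log2(FPKM + 1) scale, which understates the change of low genes, the difference was 3.23 ± 0.30 (SE; limma adjusted p = 1.51e-15, n = 8 and 82). On that scale the SD was 2.34 among the 8 tract libraries and 0.491 among the 82 others. The fit pools them into 1 variance, so this SE and p understate the spread among the tract libraries. The ipsilateral and contralateral libraries of a segment were counted separately. In this comparison 8.35% of all genes tested were called, 8.01% as higher, a call being an adjusted p under 0.05 with a log2 difference of at least 1. Without the ipsilateral isthmus the log2 difference was 2.50 (limma adjusted p = 3.49e-16). The gene was chosen as led by the endometrium among all libraries, which itself favours low values in the 82 others. These p-values are therefore not independent of that choice, and the 8.35% covers genes not chosen in that way.

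ENSBTAG00000018137 did not differ detectably between the same groups. In the tract it ran from 28.9 FPKM in the ipsilateral isthmus through a median of 186 to 373 FPKM in the ipsilateral ampulla. The other organs ran from 6.65 through 60.3 to 1361 FPKM and enclosed the whole range of the tract. Of the 8 tract libraries, 5 lay above the median of the others. The log2 difference was 0.52 ± 0.63 (SE; limma adjusted p = 0.657, n = 8 and 82), with a 95% interval from -0.74 to 1.78.

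Away from the female tract, ENSBTAG00000021119 was nearly silent. All 3 follicle libraries, which hold the cells around the egg, had a trace, at 1.88, 2.46 and 2.97 FPKM. Of the 79 libraries that were neither uterus, female tract nor follicle, 47 were listed at 0 and 6 reached 1 FPKM. Those 6 were semimembranosus muscle (2.73 FPKM), the tail of the epididymis (2.18), the cancer eye (2.03), temporal cortex (1.40), bladder (1.12) and frontal cortex (1.10). The highest library outside the uterus and female tract was thus a follicle at 2.97 FPKM, and the endometrial mean was 208 times that level. The mammary, lymphoid, liver, kidney and fat libraries were all listed at 0, as was the library labelled corpus luteum.

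ENSBTAG00000018137 had the opposite place in the endometrium, and its label as a myometrial marker does not hold over the other organs. It stood at 3.60 FPKM in caruncular, 4.75 in ipsilateral intercaruncular and 4.17 in contralateral intercaruncular endometrium, a mean of 4.17 ± 0.577 FPKM (SD, n = 3). The myometrium held 46.5 FPKM, 11.1 times the endometrial mean. On the log2(FPKM + 1) scale the myometrium was 3.20 higher, and 71 of 18031 genes (0.394%) had a larger difference in that direction. Yet 57 of the other libraries lay above the myometrium, 33 lay between it and the endometrium, and the median over all 94 libraries was 59.5 FPKM. The myometrial level was thus ordinary for this gene, and the 1 myometrial library has no replicate.

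The endometrium was the low extreme of ENSBTAG00000018137. Its 3 libraries were the 3 lowest of 94, below the cerebral cortex at 6.65 FPKM, which was 1.40 times the highest endometrial value. Of 18031 genes this was the 1 gene (0.00555%) with all 3 endometrial libraries below every other library. Only a gene above 0 in every other library can meet this, so the share understates how often eligible genes do. For scale, 4558 of the 18031 genes reached 1 FPKM in all libraries. Rescaling FPKM to equal totals or quantile normalization left those 3 libraries lowest for this gene and highest for ENSBTAG00000021119. Endometrial FPKM totals, 596448 to 630749, were below the series median of 710126. The transcript was not absent from the endometrium, and all 94 libraries had it above 1 FPKM. Because the rule compared myometrium with endometrium on these values, no test is given.

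Elsewhere ENSBTAG00000018137 was abundant in many organs. The bulbourethral gland, a male accessory gland, led with 1361 FPKM, which was 1.86 times the next library, the pigment epithelium of the eye at 731 FPKM. Ureter (625 FPKM), left lung (509), ileum (496), liver (477), bladder (455), subcutaneous fat (455) and the colon libraries (438 and 426) followed. Differences among these neighbours cannot be judged, because each is 1 library. The highest library was 378 times the lowest, and 42 libraries held 100 FPKM or more.

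Libraries with the same or a like label often differed widely in ENSBTAG00000018137, so single values are a weak guide to a tissue. The 3 follicle libraries held 48.7, 291 and 359 FPKM, a 7.38-fold range. Both mammary libraries differed 12.6-fold, at 19.4 and 243 FPKM. Fat ran from 40.3 FPKM in mammary gland fat through 158 in KPH fat to 455 in subcutaneous fat. Kidney cortex (47.2 FPKM) and medulla (42.2) were close, as were heart atrium (51.4) and ventricle (41.1). Among 8 brain regions the gene ran from 6.65 FPKM in cerebral cortex to 40.3 in the pons, with a median of 16.0, all above the endometrium. Bull testis (39.1 FPKM) and fetal testis (37.2) were alike.

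The next question was whether this gene was higher in smooth muscle organs outside the uterus. A class of 6 organs with a smooth muscle wall was set against 84 other libraries, the uterus left out. The levels were 625 FPKM in ureter, 455 in bladder, 372 in gall bladder, 292 in aorta, 269 in urethra and 129 in vas deferens. The 84 others ran from 6.65 through a median of 56.4 to 1361 FPKM, so all 6 organs lay above that median but inside the range. The myometrium, at 46.5 FPKM, was below all 6. The log2 difference was 1.93 ± 0.70 (SE; limma adjusted p = 0.324, n = 6 and 84), which did not pass the threshold that 0.139% of genes passed, with a 95% interval from 0.55 to 3.32.

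The gut wall held ENSBTAG00000018137 at a like level. Rumen, reticulum, omasum, abomasum and 6 intestinal libraries ran from 105 FPKM in duodenum through a median of 319 to 496 FPKM in ileum, and all 10 exceeded the median of the libraries outside both classes. The 3 libraries labelled rumen, omasum and reticulum held 131, 343 and 397 FPKM, while rumen papillae, the epithelial projections of the rumen surface, held 28.5. The labels do not say which layers of an organ a library held. With these 10 added to the 6 organs, the log2 difference was 2.05 and passed (limma adjusted p = 0.000448, n = 16 and 74), in a comparison that called 4.21% of genes, 3.92% as higher. The estimate was close to the 1.93 of the 6 organs alone, while its SE fell from 0.70 to 0.42 as the class grew to 16 libraries. Whether the call came from the gut or from the larger class was not tested. Gut libraries also hold epithelium, immune cells and vessels, and the part of each was not tested.

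The heart and all skeletal muscle libraries but the diaphragm were low in comparison. The 10 skeletal muscle libraries other than the diaphragm ran from 18.4 FPKM in infraspinatus to 48.0 in supraspinatus and averaged 34.0 ± 9.86 FPKM (SD, n = 10). All 10 lay below all 6 smooth-muscle-walled organs. The library labelled diaphragm held 389 FPKM, next to the 372 FPKM of the gall bladder library that its profile matched most closely. The diaphragm was set aside here, while the gall bladder stayed among the 6 organs. The esophagus, counted neither as skeletal muscle nor in the smooth-muscle-walled or gut wall class, held 316 FPKM. The heart held 41.1 and 51.4 FPKM, and the library labelled internal tongue muscle 44.0. These levels bracket the myometrium at 46.5 FPKM. On this gene the myometrial library was thus nearer to the heart and those 10 skeletal muscle libraries than to the 6 smooth-muscle-walled organs. That closeness is not particular to striated muscle, since kidney cortex (47.2 FPKM) and the fornix of the vagina (50.9) had like levels. With 1 library this is a description.

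**Figure D2:**
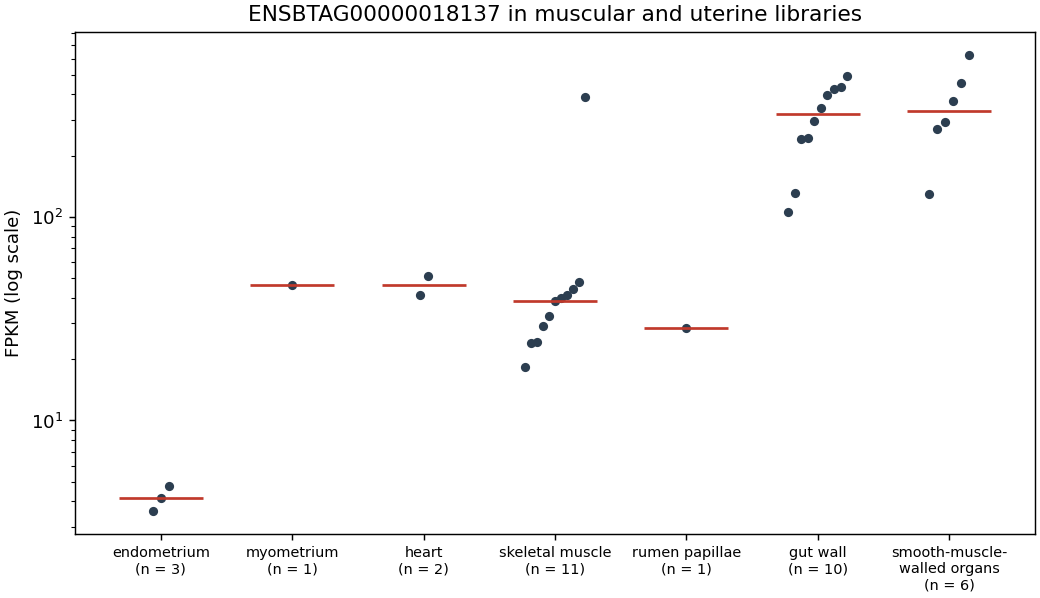
FPKM of ENSBTAG00000018137 (log axis) in the uterus, striated muscle, rumen papillae, gut wall and 6 smooth-muscle-walled organs; points are libraries and red lines medians. The myometrium (46.5 FPKM) lies within the range of heart and skeletal muscle, as do organs not shown, such as kidney cortex (47.2 FPKM). The high skeletal muscle point is the library labelled diaphragm (389 FPKM).

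ENSBTAG00000021119 was near 0 in the same organs. Its levels were 1.12 FPKM in bladder, 0.358 in ureter, 0.297 in gall bladder, 0.0574 in urethra, 0.0571 in aorta and 0 in vas deferens. The log2 difference of the 6 organs from the other 84 libraries was -0.20 ± 0.51 (SE; limma adjusted p = 0.940), with a 95% interval from -1.22 to 0.82. The 25.0 FPKM in the myometrium was 22.4 times the bladder value, the highest of the 6.

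The male tract, the counterpart of the female ducts, was compared in the same way. Neither gene passed the threshold there, where 0.244% of genes were called. ENSBTAG00000021119 was at 2.18 FPKM in the tail of the epididymis, 0.666 in the bulbourethral gland, 0.156 in the vesicular gland and 0 in the other 4 libraries. Its log2 difference was -0.17 ± 0.48 (SE; limma adjusted p = 0.940, n = 7 and 83). ENSBTAG00000018137 was at 51.6, 60.2 and 109 FPKM in the head, body and tail of the epididymis and 129 in the vas deferens. The male accessory glands ran far wider, from 67.8 FPKM in the prostate through 316 in the vesicular gland to 1361 in the bulbourethral gland. Its log2 difference was 0.72 ± 0.67 (SE; limma adjusted p = 0.855), and 0.18 without the bulbourethral gland.

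Both sides of the tract relative to the corpus luteum were then compared. The side had no part in choosing the genes, but the endometrial pair, 1 of the 4 pairs, was among the libraries whose levels did. Each of 4 segments had an ipsilateral and a contralateral library, and the segment was kept as a block. limma called 0 of 17410 genes that varied among the 8 libraries (0%), with 298 at an unadjusted p under 0.05, so neither gene passed. For ENSBTAG00000021119 the ipsilateral library was 2.08 times the contralateral in the ampulla, 2.79 times in the infundibulum, 69.8 times in the isthmus and 0.931 times in the intercaruncular endometrium. The mean log2 difference was 1.92 ± 0.997 (SE; limma adjusted p = 0.984, n = 4 pairs), with a 95% interval from -0.56 to 4.40. Without the endometrial pair it was 2.60 (limma adjusted p = 0.999, n = 3 pairs).

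For ENSBTAG00000018137 the isthmus ran the other way from the rest. The ipsilateral library was 2.02 times the contralateral in the ampulla, 1.73 times in the infundibulum and 1.14 times in the endometrium, but 0.0845 times in the isthmus, at 28.9 against 342 FPKM. The mean log2 difference was -0.39 ± 0.79 (SE; limma adjusted p = 0.984, n = 4 pairs), with a 95% interval from -2.35 to 1.57, and -0.57 without the endometrial pair (limma adjusted p = 0.999, n = 3 pairs). Without the isthmus pair it turned to 0.65 ± 0.18 (SE; limma adjusted p = 0.370, n = 3 pairs), and that of ENSBTAG00000021119 was 0.60 ± 0.24 (SE; limma adjusted p = 0.373). The isthmus pair thus set the sign of the mean of ENSBTAG00000018137. For ENSBTAG00000021119 the sign stayed, and the mean fell from 1.92 to 0.60 without that pair.

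**Figure D3:**
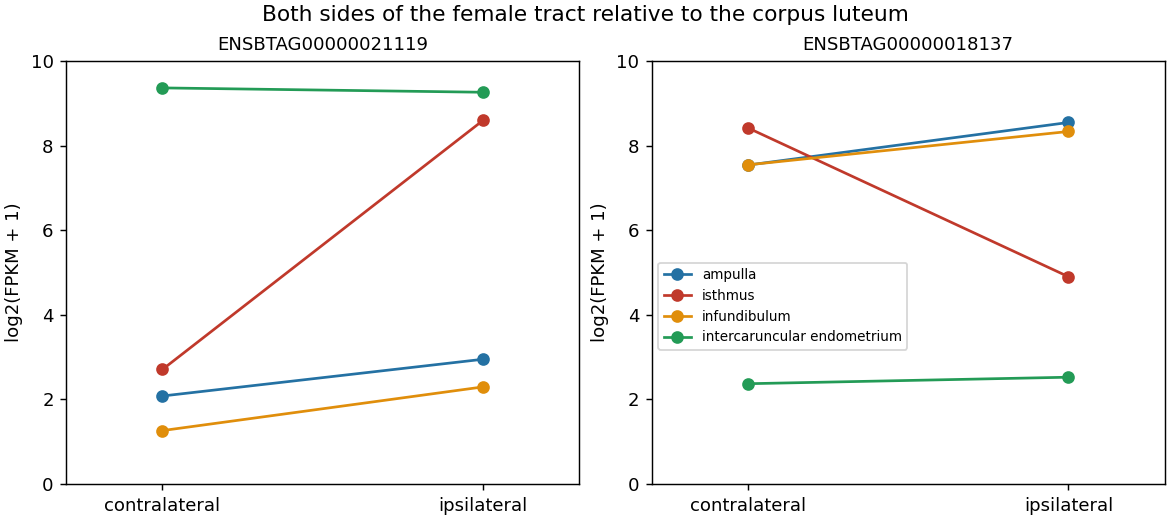
Levels of both genes as log2(FPKM + 1) in the contralateral and ipsilateral library of 4 segments of the female tract; each line joins the pair of 1 segment. The isthmus pair is steep in both panels, from 5.53 to 386 FPKM on the left and from 342 to 28.9 FPKM on the right, while the other pairs differ at most 2.79-fold.

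In the ipsilateral isthmus both genes lay nearer to their endometrial values than in any other oviduct library. For comparison, 14 genes were taken that held at least 10 FPKM in all 3 endometrial libraries and at least 4 times the level of every library outside the female tract. ENSBTAG00000021119 was 1 of them, with the second highest endometrial mean (rank 2). The list was chosen on these values, so it gets no test. Its rule set no limit on the other libraries of the female tract, and 5 of the other 13 genes exceeded their endometrial mean in 1 or more of them. These 5 are named after their values were seen. In the ipsilateral isthmus ENSBTAG00000005717 stood at 108% of its endometrial mean, ENSBTAG00000005719 at 167% and ENSBTAG00000005772 at 107%. ENSBTAG00000007159 stood at 162% in the ipsilateral and 127% in the contralateral ampulla, and ENSBTAG00000008097 at 107% in the fornix of the vagina. The other 13 genes stood at a median of 32.1% of their endometrial mean in the ipsilateral isthmus, with quartiles of 17.1% and 72.9%. In the contralateral isthmus that median was 3.50%, in the fornix of the vagina 7.85%, in the cervical lining 4.17% and in the ampulla and infundibulum libraries 1.07% to 1.96%.

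The place of ENSBTAG00000021119 among these genes varied along the tract. It stood at 62.6% in the ipsilateral isthmus, where 4 of the 13 were higher, and at 0.897% in the contralateral isthmus, where 12 were higher. In both ampullae and the contralateral infundibulum 10 of the 13 were higher, and in the ipsilateral infundibulum 7 were. Its 4.05% in the myometrium compared with a median of 0.841%, and 3 of the 13 were higher. Whether the myometrial and isthmic libraries contained endometrial tissue was not tested.

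**Figure D4:**
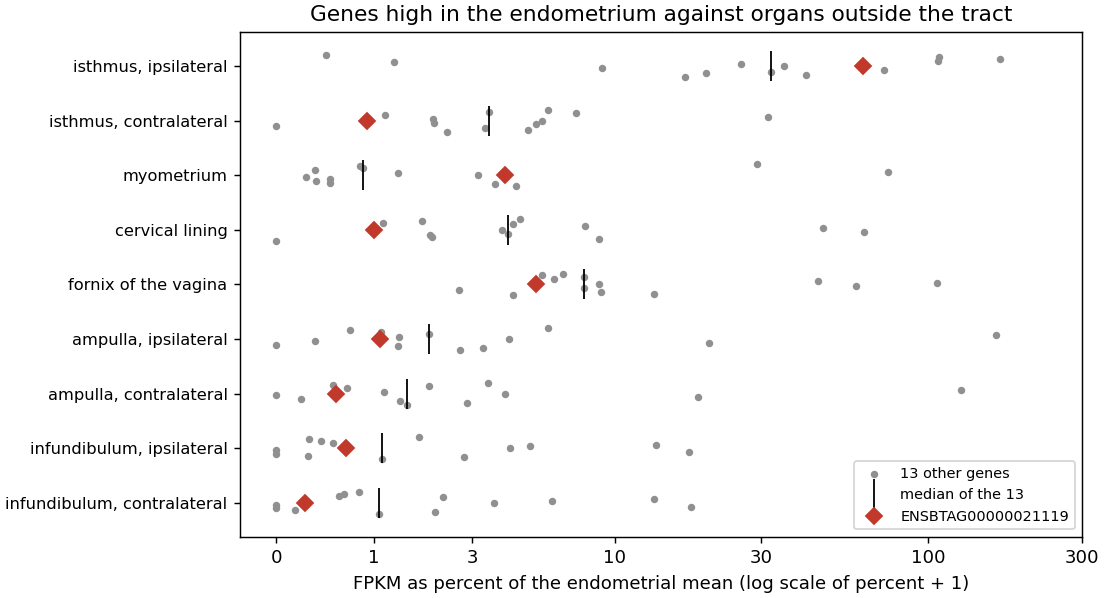
Level of 14 genes, chosen as high in the endometrium against all organs outside the female tract, in 9 other libraries of the tract, as percent of each gene's endometrial mean (log scale of percent + 1); grey points are 13 genes, the black tick their median and the red diamond ENSBTAG00000021119. The ipsilateral isthmus has the highest median, 32.1%, and the red diamond lies there at 62.6%.

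The genes most like each of the 2 were found by Pearson correlation of log2(FPKM + 1) over 94 libraries among all genes tested. These correlations are descriptions, since libraries share tissue classes and scaling. For ENSBTAG00000021119 the closest were ENSBTAG00000046283 (r = 0.920) and ENSBTAG00000005719 (r = 0.902), the 2 genes at or above 0.9. The first averaged 24.3 ± 2.996 FPKM (SD, n = 3) in the endometrium and reached 1 FPKM in 6 libraries. The second averaged 31.5 ± 3.47 FPKM there (SD, n = 3) but was highest in the ipsilateral isthmus, at 52.4 FPKM. Both had the same rank of likeness without the uterine libraries (r = 0.871 and 0.798, n = 90). The likeness rests on few libraries, as the Spearman correlations over the many low values were 0.564 and 0.484.

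ENSBTAG00000018137 had no close match. Its most similar genes were ENSBTAG00000001602 (r = 0.670) and ENSBTAG00000000802 (r = 0.653). The first was highest in the gall bladder at 68.4 FPKM and the second in the left lung at 204 FPKM. In the endometrium ENSBTAG00000001602 held 10.9 ± 0.115 FPKM and ENSBTAG00000000802 3.39 ± 0.159 (SD, n = 3), against medians of 14.4 and 7.45 FPKM in the other libraries. Neither had the endometrium as its lowest tissue, their lowest libraries being the diencephalon (2.28 FPKM) and a mammary library listed at 0. Of the 50 genes most like ENSBTAG00000018137, 20 had all 3 endometrial libraries below the median of the others, which held for 9.07% of all genes tested. The endometrial libraries are among those that measured the likeness, so nothing is read from that count.

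Outside the uterus, whose levels chose the genes, log2(FPKM + 1) of the 2 genes had a Pearson correlation of 0.00 and a Spearman correlation of 0.12 (n = 90 libraries).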

How the data were processed

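RNA sequencing of 94 bovine tissue libraries was analysed from 1 table of the whole series. The deposited values are FPKM per gene, per the file headers and name, and per the submitters' processing notes the tools were HISAT2 and StringTie and the build UMD3.1. Their versions, the annotation and any filter are not stated in the labels or headers read here. FPKM depends on all other transcripts of a library, so an abundant gene lowers the rest. An exact 0 can be a failed estimate, so a gene is said to be listed at 0.

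Libraries were grouped by tissue label. The 18031 genes that reached 1 FPKM in 3 or more libraries were tested on log2(FPKM + 1) with two-sided moderated tests in limma 3.58.1 (R 4.3.3, trended prior variance), adjusted by Benjamini-Hochberg over all of them that varied among the libraries of a fit (18031 in the 3 class comparisons, 17410 for the sides). A call needed an adjusted p below 0.05 together with a log2 difference of 1 or more. Uterine libraries stayed out of the 3 class comparisons; sides were paired by segment, which the labels give. Descriptions used Python 3.11.15. On simulated data with 200 changed genes, log2 changes of 2 were called for 76% (male tract) to 84% (female tract) among 18031 genes. In the side comparison 48% were called, among 17410. Whether these shares apply to either of the 2 genes was not tested. On the log2(FPKM + 1) scale ENSBTAG00000018137 had an SD of 0.776 among the 6 smooth-muscle-walled organs and 1.72 among the 84 other libraries. ENSBTAG00000021119 passed the filter through 17 libraries outside the uterus as well. The members were chosen with earlier results of these data known. The plan named the 2 members and, for each, the 2 genes with the highest correlation. Outside that plan, the 5 genes above their endometrial mean elsewhere in the tract were named after their values were seen. Alternatives were a pseudocount of 0.1, no filter, equal totals, quantile normalization, other class members and each library left out. The planned marker gene lists were not run, because identifiers have no names.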

Additional observations from a re-analysis of the deposited data

Results flagged for a closer look

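In 3 cases a library lay apart from the rest of its group in 16 groups of 4 to 10 libraries that were examined, where chance gives about 1 in 20. Groups with no library at 1 FPKM were not examined, nor was skeletal muscle, with 11 libraries. In skeletal muscle the diaphragm held 389 FPKM of ENSBTAG00000018137, against at most 48.0 in the others. Semimembranosus held 2.73 FPKM of ENSBTAG00000021119, against at most 0.357 in the others. The ipsilateral isthmus held 386 FPKM of ENSBTAG00000021119, far above the other 5 oviduct libraries. The same library held 28.9 FPKM of ENSBTAG00000018137, far below them. In the male ducts the tail of the epididymis held 2.18 FPKM of ENSBTAG00000021119, and the other 3 were listed at 0. With 3 libraries at 0, any value above 0 stands apart in this way, so that case shows no more than the trace itself. The forestomach (omasum 0.0415 FPKM) and the respiratory tract (left lung 0.174 FPKM) had the same pattern below 1 FPKM.

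Between the sides of the tract, 1 segment moved against the other 3 for each gene. The isthmus had a log2 difference of -3.52 (ipsilateral minus contralateral) in ENSBTAG00000018137, where the other segments were positive. The intercaruncular endometrium had -0.10 in ENSBTAG00000021119, again against positive values in the others. With 1 pair per segment these differences between segments were not tested.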

How the results depend on the processing

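Of 102 alternative settings of the 8 gene comparisons, 97 kept direction and side of the threshold, 1 passed it and 4 reversed the sign of a value that had not passed. The call of ENSBTAG00000021119 in the female tract was kept throughout, with log2 differences of 2.50 to 3.55 when each library was left out. Adding the gut wall brought ENSBTAG00000018137 past the threshold at 2.05. For ENSBTAG00000021119 in smooth-muscle-walled organs the difference was 0.13 with a pseudocount of 0.1 and 0.13 without the genital tract in the rest. The side difference of ENSBTAG00000018137 became 0.65 without the isthmus, and also in the set without the diaphragm, gall bladder and isthmus libraries, an alternative chosen after seeing the data. Leaving out a segment gave -0.86 to 0.65. Without the segment as a block it stayed at -0.39 (limma adjusted p = 0.9998).

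Counts of genes called were less stable. For smooth-muscle-walled organs 25 became 6 with a pseudocount of 0.1, 67 without the genital tract in the rest and 760 with the gut wall. The count was 81 without the diaphragm, gall bladder and isthmus libraries. It was 83 without the 8 libraries picked earlier from those nearest to another organ, a choice also made after seeing the data. Leaving out 1 library gave 6 to 72 (6 without aorta, 8 without ureter, 8 without urethra, 10 without vas deferens, 72 without gall bladder). For the male tract 44 became 21 with a pseudocount of 0.1, 67 with quantile normalization, 100 without those 8 libraries, and 5 to 72 without 1 library (5 without the epididymis head, 14 without its body, 72 without its tail, 70 without the bulbourethral and 69 without the vesicular gland). The endometrial level of ENSBTAG00000021119 over the median of the others, 9.27 on the log2 scale, was 12.6 with a pseudocount of 0.1 and 9.52 with equal totals. The myometrial excess of ENSBTAG00000018137, 3.20, was 3.46 with a pseudocount of 0.1 and 3.89 with quantile normalization. The causes were not tested. Depth is unknown, so the precision of low values cannot be given.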
